A study of Mus musculus with 8 samples.

Results

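The genes described here are the ephrin and semaphorin guidance genes of the mouse hippocampus: Eph receptors of the A and B types, ephrins of the A and B types, semaphorins of classes 3 to 7, plexins and neuropilins. They were taken by symbol, and 56 genes of the control tables matched. Of these, 53 encode proteins and 3 are antisense RNAs named after Plxna4. The proteins fall into 9 EphA and 5 EphB receptors, 5 ephrin-A and 3 ephrin-B ligands, 7 class 3, 6 class 4 and 7 class 5 to 7 semaphorins, 9 plexins and 2 neuropilins. In all, 54 of the 56 were found in the mutant tables too, among 17710 genes shared by both kinds of table, and 47 reached the mean level of 1 that was needed for a test.

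The study measured RNA from the hippocampus of C57BL/6 mice in 4 groups of 2 libraries. KO mice carried a CRISPR knockout of Pyk2, a non-receptor tyrosine kinase of the focal adhesion kinase family encoded by Ptk2b, and Y402F mice carried a CRISPR mutation that changes its autophosphorylated tyrosine to phenylalanine. Each line had its own wild-type controls, called KO controls and Y402F controls here. No treatment was named, and the age and sex of the mice, the number of founder animals and whether the libraries came from separate animals were not given in the labels used here, so p-values measure only the spread between these libraries.

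Eph receptors are receptor tyrosine kinases that bind membrane-bound ephrins on neighbouring cells, and both partners can signal into their own cell. Semaphorins are secreted or membrane-bound cues that signal through plexins, and most secreted class 3 members need a neuropilin as co-receptor. In the hippocampus these families are known for guiding axons to their layers, as Sema6a, Plxna2 and Plxna4 do for the mossy fibres, and for shaping dendritic spines, as neuronal Epha4 and glial ephrin-A3 do.

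The levels of the guidance genes spread over a wide range within every class but the neuropilins, whose means were 12.5 and 15.2. The ephrin-A genes are an example, and 3 of the 5 lie side by side on chromosome 3. Efna3 had a mean level of 56.4 over the 8 libraries, while Efna1, 32.8 kb away, had 3.03 and Efna4, 10.4 kb away, had 0.234. Levels here are FPKM (fragments scaled to transcript length and to the size of the library) divided by a scaling factor for each library. They allow only a rough comparison between genes, since the means pool both kinds of table. Efna2 had 4.43 and Efna5 had 1.40. The 250 bases upstream of an annotated start of each of these genes are printed below from RefSeq, build GRCm38.p6, 5′ to 3′ on the gene's own strand, so that the promoters of the abundant and the scarce ligands can be read side by side. Capitals mark a GC box, GGGCGG or its reverse complement CCGCCC. The windows are chr3:89279646-89279895 on the minus strand for Efna1, chr10:80179232-80179481 on the plus strand for Efna2, chr3:89321769-89322018 on the minus strand for Efna3, chr3:89338029-89338278 on the minus strand for Efna4 and chr17:62881318-62881567 on the minus strand for Efna5. None of these windows holds an annotated exon base, and those of Efna1 and Efna3 lie inside the gene, downstream of a second annotated start.
Efna1: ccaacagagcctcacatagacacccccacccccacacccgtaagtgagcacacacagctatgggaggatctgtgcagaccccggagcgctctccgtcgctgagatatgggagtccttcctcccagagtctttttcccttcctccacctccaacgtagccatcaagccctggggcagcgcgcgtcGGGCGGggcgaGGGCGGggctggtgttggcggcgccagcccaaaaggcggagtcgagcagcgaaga
Efna2: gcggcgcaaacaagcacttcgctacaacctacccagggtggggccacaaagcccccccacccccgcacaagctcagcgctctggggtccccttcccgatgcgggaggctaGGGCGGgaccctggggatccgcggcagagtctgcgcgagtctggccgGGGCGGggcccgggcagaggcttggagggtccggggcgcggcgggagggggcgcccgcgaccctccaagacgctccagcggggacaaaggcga
Efna3: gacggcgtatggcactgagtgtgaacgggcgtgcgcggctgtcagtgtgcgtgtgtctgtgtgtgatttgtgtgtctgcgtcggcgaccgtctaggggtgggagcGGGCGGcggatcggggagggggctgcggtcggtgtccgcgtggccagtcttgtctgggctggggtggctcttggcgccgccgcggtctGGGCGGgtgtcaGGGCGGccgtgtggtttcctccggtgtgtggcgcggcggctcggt
Efna4: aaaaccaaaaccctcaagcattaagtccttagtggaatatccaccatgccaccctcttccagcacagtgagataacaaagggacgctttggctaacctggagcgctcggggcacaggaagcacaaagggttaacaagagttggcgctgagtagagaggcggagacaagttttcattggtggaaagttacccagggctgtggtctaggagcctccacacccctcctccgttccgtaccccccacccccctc
Efna5: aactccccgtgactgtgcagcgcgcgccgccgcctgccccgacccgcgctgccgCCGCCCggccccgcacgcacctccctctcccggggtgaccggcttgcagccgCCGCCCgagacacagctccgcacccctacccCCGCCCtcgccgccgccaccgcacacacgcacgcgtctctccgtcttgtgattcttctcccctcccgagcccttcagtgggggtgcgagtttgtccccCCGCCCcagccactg

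The Efna3 window holds 3 GC boxes and 31 CpG dinucleotides, and the Efna4 window holds 0 and 7. The Efna5 window, upstream of a gene at a mean of 1.40, holds 4 GC boxes and 32 CpG dinucleotides, so the letters did not follow the levels. Efna1 has 2 GC boxes and 18 CpG dinucleotides, and Efna2 has 2 and 25. At the other annotated start, whose window is not printed, Efna3 has 3 GC boxes and 19 CpG dinucleotides and Efna1 has 1 and 16. Windows were found for 47 of the guidance genes, 61 in all. Their median was 16 CpG dinucleotides and 64.4% G and C, against 6 and 52.4% over all 32851 windows in the RefSeq table. A GC box stood in 75.4% of the guidance gene windows and in 32.7% of all windows, searched on both strands. The letters TATAAA stood in 1.6% and 12.4%, CCAAT in 31.1% and 33.8%, CACGTG in 4.9% and 6.0%, and TGACGTCA in 1.6% and 1.5%. The guidance gene windows all belong to protein-coding genes, while the 32851 windows were not limited by gene type or level. The shares therefore do not compare like with like, and no trait of guidance genes can be read from them. These are matches of letters and no measure of binding.

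Ptk2b, the targeted gene, stood at 56.1 and 68.7 scaled FPKM with the knockout and at 309 and 308 in the KO controls. It measured 353 and 396 in the Y402F libraries and 324 and 317 in theirs. The mutant libraries held 5694720 to 5960920 expected counts over the shared genes, while the depth of the control libraries is unknown because their tables give FPKM with no counts. The mutant tables list RefSeq genes with expected counts and FPKM, and the control tables list Ensembl genes with Cufflinks FPKM, so that the kind of table and the genotype cannot be told apart where a mutant is set against its control. All 6 hippocampal neuron markers were above 0 in every library, with summed levels of 1747 to 2468. Choroid plexus markers summed to 754 in Y402F replicate 2 and to 1145 and 1172 in the Y402F controls, but to between 39.6 and 53.9 in the other 5 libraries, where Kcnj13, Clic6, Aqp1 and Otx2 were at 0 in at least 1 library. Y-linked Ddx3y was at 5.77 and 4.78 in the Y402F controls and under 0.07 in both KO controls, so that sex and line cannot be told apart between the controls. The KO and Y402F groups each held 1 library with Y-linked transcripts.

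Among receptors, Epha4 had the highest mean level of all 53 protein-coding genes, at 58.3, and was followed by the ligands Efna3 at 56.4 and Efnb3 at 53.4. The library values of these 3 genes overlapped, so their order is not separated by the spread. Next came the receptor Plxna1 at 43.4, the membrane-anchored semaphorin Sema7a at 41.6, Epha7 at 40.0 and Sema6b at 32.9. The place of Plxna1 rests on the control tables, with means of 63.4 in KO controls and 52.9 in Y402F controls. In KO and Y402F its means were 27.8 and 29.6, below those of Sema7a, Epha7 and Sema6b. The most abundant member of the other classes was Ephb6 at 27.8, a receptor whose kinase domain is inactive, Sema4d at 17.2, Nrp2 at 15.2 and the secreted ligand Sema3e at 9.59. Altogether 7 genes had a mean of at least 30, 19 of at least 10 and 6 of less than 1. Those 6 were Sema3d, Sema3a, Epha8, Epha2, Efna4 and Epha1, with means from 0.942 down to 0.0992. The order of the 53 genes was much the same in the mutant and control tables (Spearman's rho 0.94 across genes, which share libraries and are not replicates). A lower level in bulk tissue can mean fewer cells of a type or less RNA per cell, which cannot be told apart.

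**Figure D1:**
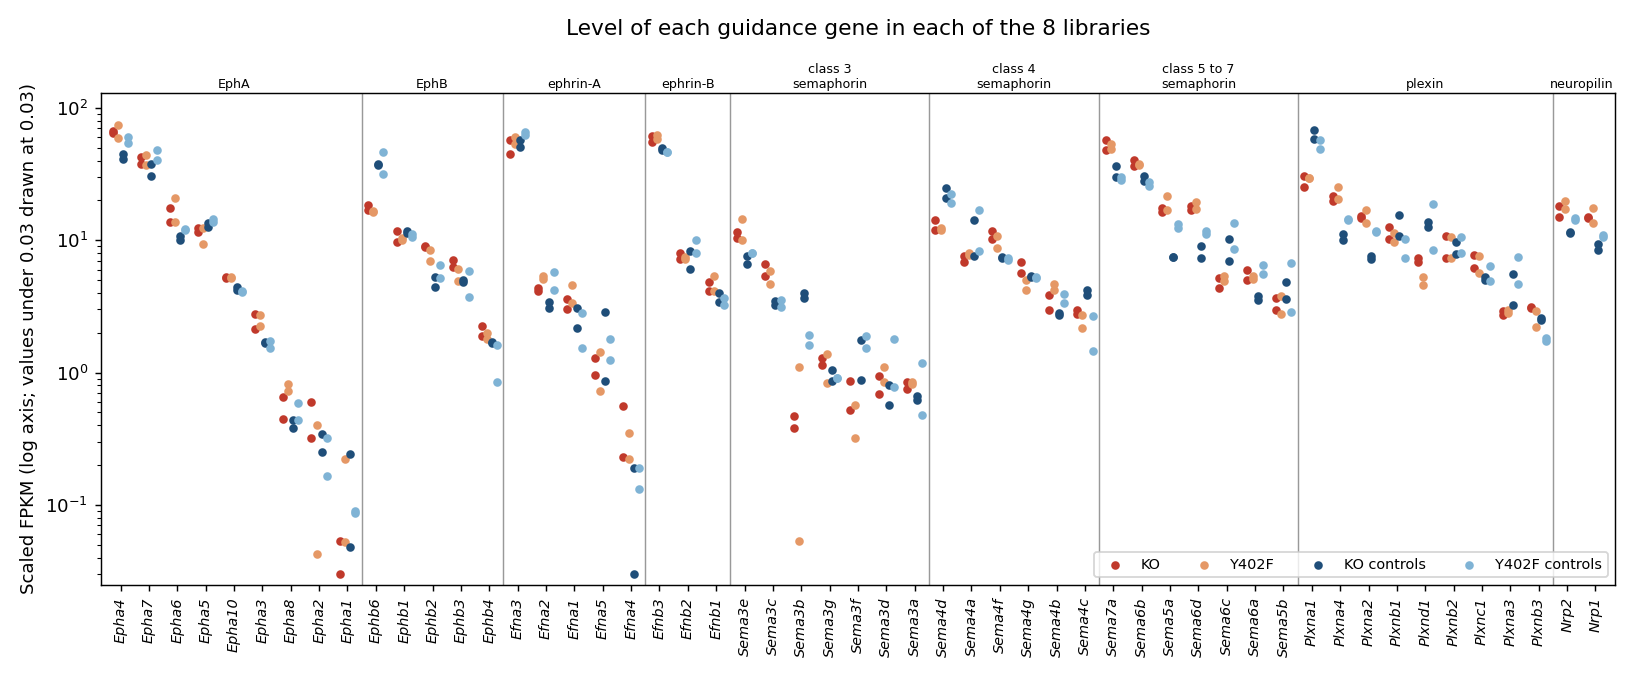
Scaled FPKM (log axis) of the 53 protein-coding guidance genes, grouped by class and ordered by mean level within it. Each point is 1 library, coloured by group, and the means run from 58.3 for Epha4 to 0.0992 for Epha1.

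KO libraries were compared with KO controls, and Y402F libraries with Y402F controls. Genotype and kind of table change together in both comparisons, so a difference called here and below cannot be assigned to either. In the KO line 18 of the 47 tested genes were called (limma, adjusted p under 0.05 over all 12977 genes tested), where 37.6% of all genes were called in either direction. In the Y402F line 14 of 47 were called, where 32.3% of all genes were. The shares of guidance genes, 38.3% and 29.8%, lay near these backgrounds. The KO line had 13 genes called higher and 5 lower, against 16.6% and 21.0% of all genes, and the Y402F line had 7 and 7, against 13.0% and 19.3%. The split depended on scaling: with no scaling, where the median gene stood at -0.12 in both lines, it was 9 higher and 6 lower in the KO line and 4 and 9 in the Y402F line. With quantile normalization it was 16 and 5, and 14 and 7. The median log2 difference of the guidance genes was 0.22 in the KO line and 0.20 in the Y402F line, against 0 over all genes tested. The libraries of the groups did not overlap for 37 and 36 of the 47 genes, against 71.0% and 68.6% of all genes. Sema3b and Sema3f reached the level for a test only through the controls, and without them 17 of 45 genes (13 higher, 4 lower) and 13 of 45 (7 higher, 6 lower) were called. Leaving out 1 library lowered the counts, to 11 without KO replicate 2, and to 7 without Y402F replicate 1, 9 without Y402F control replicate 1 and 8 without Y402F control replicate 2.

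**Figure D2:**
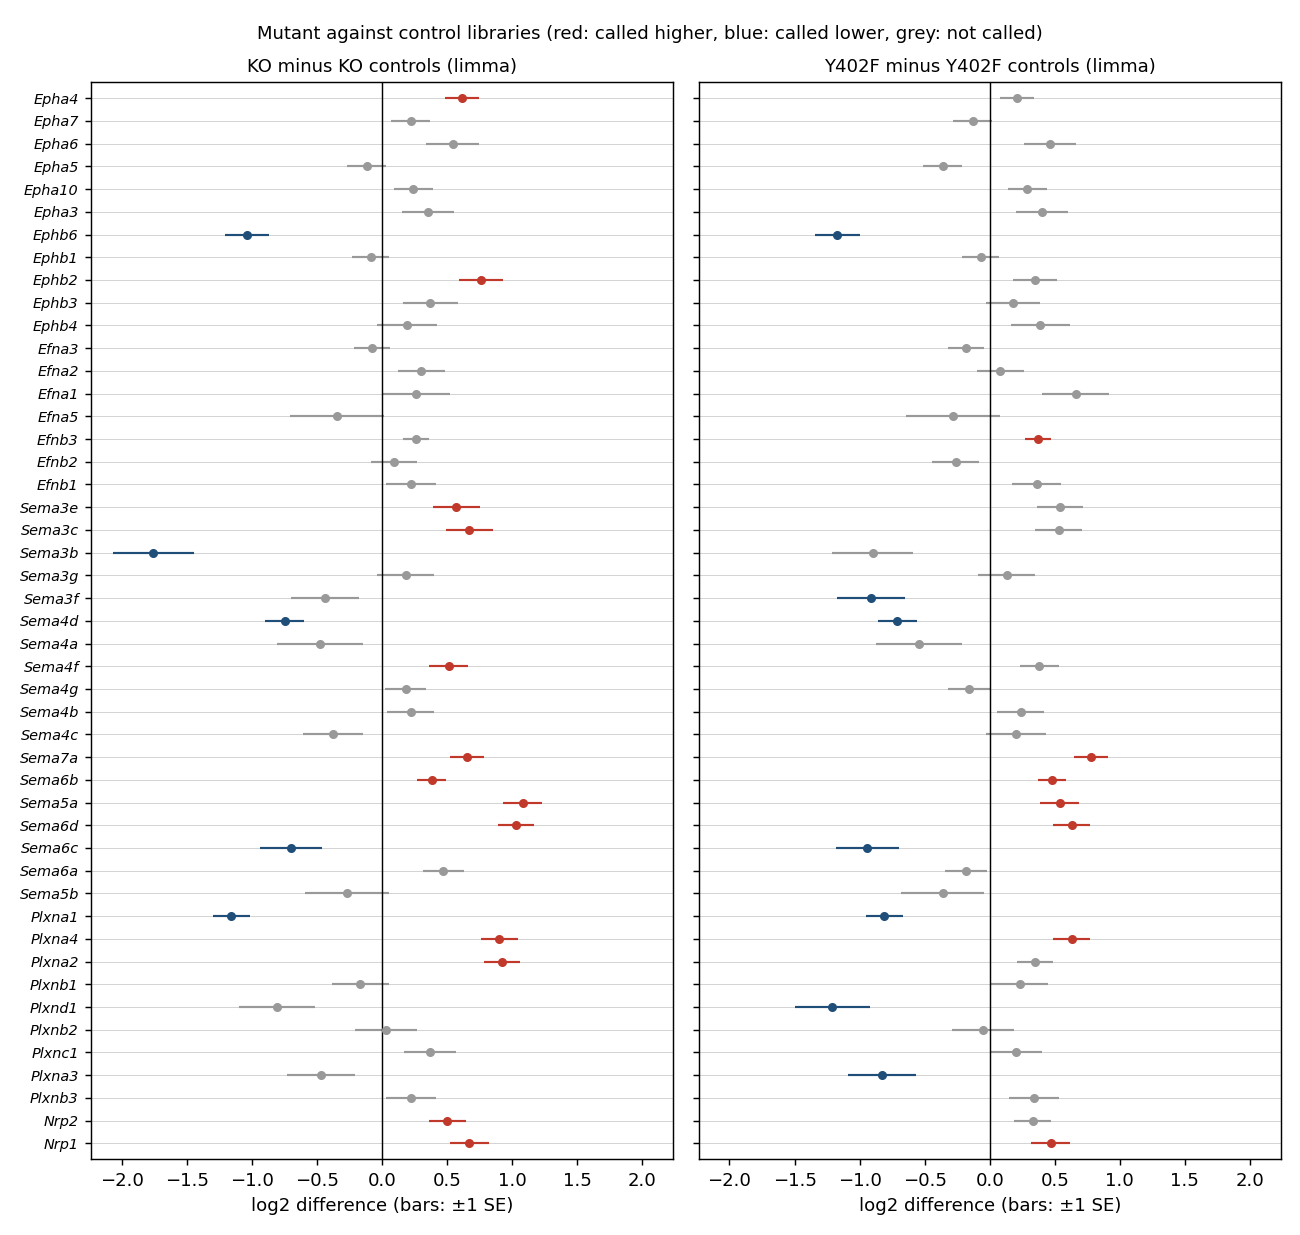
Log2 difference of the 47 tested guidance genes between each mutant and its own control, with bars of 1 standard error from the limma fit. Red points were called higher and blue points lower, 13 and 5 in the KO panel and 7 and 7 in the Y402F panel.

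Among the Eph receptors, Ephb6 was lower in both mutant lines, and Epha4 and Ephb2 were higher in the KO line. Ephb6 measured 17.1 and 18.4 in KO and 37.4 and 37.6 in KO controls. It measured 16.3 and 16.8 in Y402F and 46.7 and 31.9 in Y402F controls. Every mutant library was thus below every control library, with log2 differences of -1.04 (SE 0.17, limma adjusted p = 0.00183) and -1.17 (SE 0.17, limma adjusted p = 0.0011). Epha4, a receptor for ephrins of both types, measured 64.5 and 67.5 in KO and 44.5 and 41.2 in KO controls, 0.61 higher on the log2 scale (SE 0.13, limma adjusted p = 0.00629). It measured 74.8 and 59.1 in Y402F and 60.0 and 54.5 in Y402F controls, where the groups overlapped and the difference of 0.21 was not called. Ephb2, an EphB receptor known at excitatory synapses, measured 9.0 and 8.84 in KO and 5.27 and 4.46 in KO controls, a difference of 0.76. In the Y402F line it measured 8.46 and 6.95, with 6.55 and 5.16 in the controls, and the difference of 0.35 was not called. The KO call of Ephb2 was lost without either KO replicate or without KO control replicate 2, with adjusted p no higher than 0.0588. The other 8 tested Eph receptors were called in neither line, Epha7 among them with 0.22 and -0.13.

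Of the 7 ephrins tested, 0 were called in the KO line and 1 in the Y402F line, beside 37.6% and 32.3% of all genes. That 1 was Efnb3, a transmembrane ligand of EphB receptors and Epha4. It measured 58.2 and 62.1 in Y402F and 46.1 and 46.1 in Y402F controls, 0.37 higher on the log2 scale (SE 0.10, limma adjusted p = 0.0186). Its KO values of 55.4 and 61.6 also stood above the KO control values of 49.4 and 48.1, with a difference of 0.26 that was not called (limma adjusted p = 0.0662). The Y402F call was lost without scaling and without Y402F replicate 2 or either Y402F control. Efna3 measured 45.0 and 57.3 in KO, 50.3 and 57.2 in KO controls, 53.1 and 59.9 in Y402F and 65.7 and 62.5 in Y402F controls. Its KO values overlapped those of the KO controls, and its differences of -0.08 and -0.18 were not called. The exons of Efna3 overlap a gene on the other strand, and the labels do not say whether counting used strand, so its level is uncertain.

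Secreted class 3 semaphorins had differences in both directions. Sema3b measured 0.471 and 0.382 in KO, from 9 and 8 expected counts, against 3.67 and 3.99 in KO controls, and its log2 difference was -1.76. It reached the level needed for a test only through the controls, so its difference is given as a description. The authors' scaled confidence bounds started at 0 in all 4 controls and reached up to 8.15 in the KO controls. In the Y402F line the values were 0.0529 and 1.10 against 1.94 and 1.61, and the difference of -0.90 was not called. Sema3f, its neighbour 72.3 kb away, was called in the Y402F line alone, at 0.318 and 0.570 against 1.89 and 1.54 in the controls, a difference of -0.91. In the KO line Sema3f measured 0.859 and 0.520 against 1.77 and 0.882. Sema3f too was tested only through the controls, whose bounds all started at 0 and reached at most 4.73. The Y402F call was lost without any 1 of the 4 libraries. Sema3c and Sema3e, the latter a ligand that binds Plxnd1 directly, were called higher in the KO line. Sema3c measured 6.60 and 5.35 in KO against 3.48 and 3.27, and 5.90 and 4.68 in Y402F against 3.13 and 3.52, with differences of 0.67 and 0.53. Sema3e measured 11.6 and 10.4 in KO against 6.62 and 7.58, and 14.5 and 10.1 in Y402F against 8.01 and 8.02, with differences of 0.57 and 0.54. Both genes stood above every control library in both lines, while the Y402F differences just missed the threshold (limma adjusted p = 0.0552 and 0.0519). The KO calls of both were lost without KO replicate 1 or without either KO control, and that of Sema3e also without KO replicate 2.

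Class 4 semaphorins are transmembrane ligands, and Sema4d, a ligand of Plxnb1 made by oligodendrocytes in the adult brain, was lower in both lines. It measured 11.9 and 14.3 in KO against 20.8 and 24.8 in KO controls, and 11.9 and 12.5 in Y402F against 19.0 and 22.2 in Y402F controls. The log2 differences were -0.75 (SE 0.15, limma adjusted p = 0.00523) and -0.71 (SE 0.15, limma adjusted p = 0.0081). The Y402F call was lost without Y402F control replicate 2. The 8 oligodendrocyte markers, all above 0 in every library, summed to 2944 and 3523 in KO, 4458 and 4583 in KO controls, 2670 and 2997 in Y402F and 2895 and 2922 in Y402F controls. Mbp carried most of these sums, and the list did not move one way: 2 of 8 were called higher and 3 lower in the KO line, and 4 and 2 in the Y402F line. Of all genes 16.6% were called higher and 21.0% lower in the KO line, and 13.0% and 19.3% in the Y402F line. Among the markers, Mobp (-1.40 and -1.54) and Mag (-0.50 and -0.70) were lower in both lines, and Opalin (1.21 and 1.13) and Cldn11 (0.37 and 0.44) higher. The part of these markers in the Sema4d difference was not tested. Sema4f measured 10.3 and 11.7 in KO against 7.28 and 7.46, a called difference of 0.51, and 8.71 and 10.8 in Y402F against 7.41 and 7.08, a difference of 0.38 that was not called. The KO call of Sema4f was lost without any 1 of the 4 libraries. Sema4a had control replicates that lay far apart, at 7.61 and 14.3 in KO controls and 8.36 and 17.0 in Y402F controls. The authors' confidence bounds, scaled in the same way, ran from 4.90 to 10.3 and from 9.65 to 18.9 for the former pair and from 5.18 to 11.5 and from 12.2 to 21.7 for the latter. Its mutant values lay between 6.85 and 7.99, and neither difference was called.

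The class 5 to 7 semaphorins, which are held in the membrane, gave 5 of the 10 genes called in both lines. Of the 7 tested, 4 were called higher and 1 lower in each line, and they were the same genes. Of all genes 16.6% were called higher and 21.0% lower in the KO line, 13.0% and 19.3% in the Y402F line, and 9.03% higher and 14.1% lower in both. Sema5a measured 16.3 and 17.6 in KO against 7.50 and 7.43 in KO controls, and 21.7 and 16.9 in Y402F against 13.2 and 12.5 in Y402F controls. The differences were 1.08 (SE 0.15, limma adjusted p = 0.00078) and 0.54 (SE 0.15, limma adjusted p = 0.0227), the latter lost without Y402F replicate 1 or either Y402F control. Sema6d, a plexin-A1 ligand, measured 18.2 and 17.0 against 7.33 and 8.99, and 19.6 and 17.1 against 11.8 and 11.2, with differences of 1.03 (SE 0.14, limma adjusted p = 0.000899) and 0.63. Both genes were above all control libraries in all mutant libraries. Sema7a, a GPI-anchored ligand of Plxnc1 and of integrins, measured 48.1 and 57.3 against 30.2 and 36.1, and 48.8 and 53.6 against 30.1 and 28.8. Its differences were 0.65 (SE 0.13, limma adjusted p = 0.00526) and 0.78 (SE 0.13, limma adjusted p = 0.00259), and it was called under every alternative in both lines. Sema6b measured 36.4 and 40.3 against 28.0 and 30.5, and 37.0 and 37.9 against 25.6 and 27.6, with smaller differences of 0.38 and 0.48. Sema6c went the other way, at 5.19 and 4.38 against 10.2 and 6.92, and 4.95 and 5.39 against 13.4 and 8.65, with differences of -0.70 and -0.94. The authors' scaled confidence bounds of control replicate 2 ran from 3.60 to 10.2 in the KO line and from 3.67 to 13.6 in the Y402F line. They hold the mutant values of their line. The bounds of control replicate 1 ran from 5.60 to 14.7 and from 6.69 to 20.2, above the mutant values. The Sema6c calls were lost without any 1 of the mutant libraries, or without control replicate 1 of either line. Those of Sema6b were lost without KO replicate 2 or either KO control, and without Y402F control replicate 1. The Sema6d call in the Y402F line was lost without Y402F replicate 1 or Y402F control replicate 2.

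Plexins, the signalling receptors of semaphorins, split by gene within the A type. Plxna1 measured 25.3 and 30.4 in KO against 58.1 and 68.7 in KO controls, and 29.4 and 29.8 in Y402F against 57.0 and 48.8 in Y402F controls. It was lower in every mutant library than in every control library, with differences of -1.16 (SE 0.14, limma adjusted p = 0.000345) and -0.81 (SE 0.14, limma adjusted p = 0.00252). Plxna1 exons overlap a gene on the other strand, which leaves its level uncertain without strand. Plxna4, a receptor for Sema3a and Sema6a, was on the opposite side, at 19.7 and 21.7 against 10.1 and 11.2, and 25.4 and 20.4 against 14.6 and 14.2. Its differences were 0.90 (SE 0.14, limma adjusted p = 0.00171) and 0.63 (SE 0.14, limma adjusted p = 0.011), the latter lost without Y402F replicate 1. Plxna2 measured 14.7 and 15.3 in KO against 7.27 and 7.66, a called difference of 0.92, and 17.0 and 13.4 in Y402F against 11.6 and 11.7, a difference of 0.35 that was not called. X-linked Plxna3 measured 2.98 and 2.82 in Y402F against 7.51 and 4.64, a called difference of -0.83, and 2.75 and 2.94 in KO against 5.60 and 3.27, a difference of -0.47 that was not called. Plxnd1, the Sema3e receptor, measured 4.62 and 5.26 in Y402F against 18.8 and 8.49, a called difference of -1.21, and 7.28 and 6.89 in KO against 13.7 and 12.7, a difference of -0.81 that was not called. Its Y402F controls lay far apart, and the call was lost without either Y402F replicate. The authors' scaled confidence bounds of these controls ran from 12.4 to 25.1 and from 4.21 to 12.8, and the latter hold both Y402F values. The Plxna3 call was lost without either Y402F replicate or Y402F control replicate 1. The 3 B plexins and Plxnc1 were called in neither line.

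Both neuropilins, the co-receptors of class 3 semaphorins, were higher in the KO line. Nrp1 measured 14.8 and 14.9 in KO against 9.41 and 8.51, and 17.5 and 13.6 in Y402F against 11 and 10.6. Its differences of 0.67 (SE 0.15, limma adjusted p = 0.00888) and 0.47 (SE 0.15, limma adjusted p = 0.0415) were both called. The former was lost without KO replicate 2, at an adjusted p of 0.0504, and the latter without scaling and without Y402F replicate 1 or either Y402F control. Nrp2 measured 15.1 and 18.3 against 11.4 and 11.4, and 19.7 and 17.2 against 14.7 and 14.1. Its difference of 0.50 was called in the KO line, but not without scaling, without KO replicate 2 or without either KO control, and 0.33 in the Y402F line was not called.

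Across the families, 10 genes were called in the same direction in both lines, which is 10 of the 18 KO calls and 10 of the 14 Y402F calls. Over all 12977 genes 23.2% were called in the same direction in both lines, 61.6% of the KO calls and 71.7% of the Y402F calls, so the count of 10 in 47 lay near the background. The 6 higher ones were Nrp1, Plxna4, Sema5a, Sema6b, Sema6d and Sema7a, and the 4 lower ones were Ephb6, Plxna1, Sema4d and Sema6c. A further 8 were called in the KO line only and 4 in the Y402F line only, and 0 were called in opposite directions. In the KO line 8 of 22 tested receptors (36.4%) and 10 of 25 tested ligands (40%) were called, near the 37.6% of all genes. In the Y402F line 6 of 22 (27.3%) and 8 of 25 (32%) were called, near the 32.3% of all genes. Without scaling, the KO calls of Nrp2, Sema3e, Sema4f and Sema6b and the Y402F calls of Efnb3, Nrp1 and Sema5a were lost. A term for sex ended the KO calls of Sema4f and Sema6c and the Y402F calls of Nrp1, Plxna3, Plxnd1, Sema3f and Sema5a. Over the same comparisons, 5 of the 6 dentate granule cell markers were called higher in the KO line and 2 of 6 in the Y402F line, beside 16.6% and 13.0% of all genes. Their sums were 92.6 and 106 in KO, 66.9 and 68.2 in KO controls, 118 and 120 in Y402F and 94.3 and 94.3 in Y402F controls. Of the 6 hippocampal neuron markers, 4 were called higher and 1 lower in the KO line, and 5 higher and 0 lower in the Y402F line. These summed to 2241 and 2468 in KO, 1885 and 1904 in KO controls, 2256 and 2406 in Y402F and 1784 and 1747 in Y402F controls. The part of either list in the called differences was not tested.

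The direction of a difference moved with the length of the annotated transcripts. Across the 47 genes, Spearman's rho between the median length of a gene's GENCODE transcripts and its difference was 0.54 in the KO line and 0.47 in the Y402F line. Over 12423 protein-coding genes it was 0.44 and 0.35. These are descriptions across genes measured in the same libraries. The guidance genes called lower had a median length of 706.5 bases in both lines, and those called higher had 3229. Among all genes the corresponding medians were 825 and 2370.75 bases in the KO line and 867 and 2057 in the Y402F line. Plxna1, Ephb6 and Sema4d thus have mostly short transcripts in GENCODE, and Sema6c, at 2843 bases, is the one lower gene that has not. Summed FPKM, which was 380800 to 409700 in the mutant tables, was 994400 to 1566000 in the control tables. The part of transcript length in the mutant against control results was not tested.

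**Figure D3:**
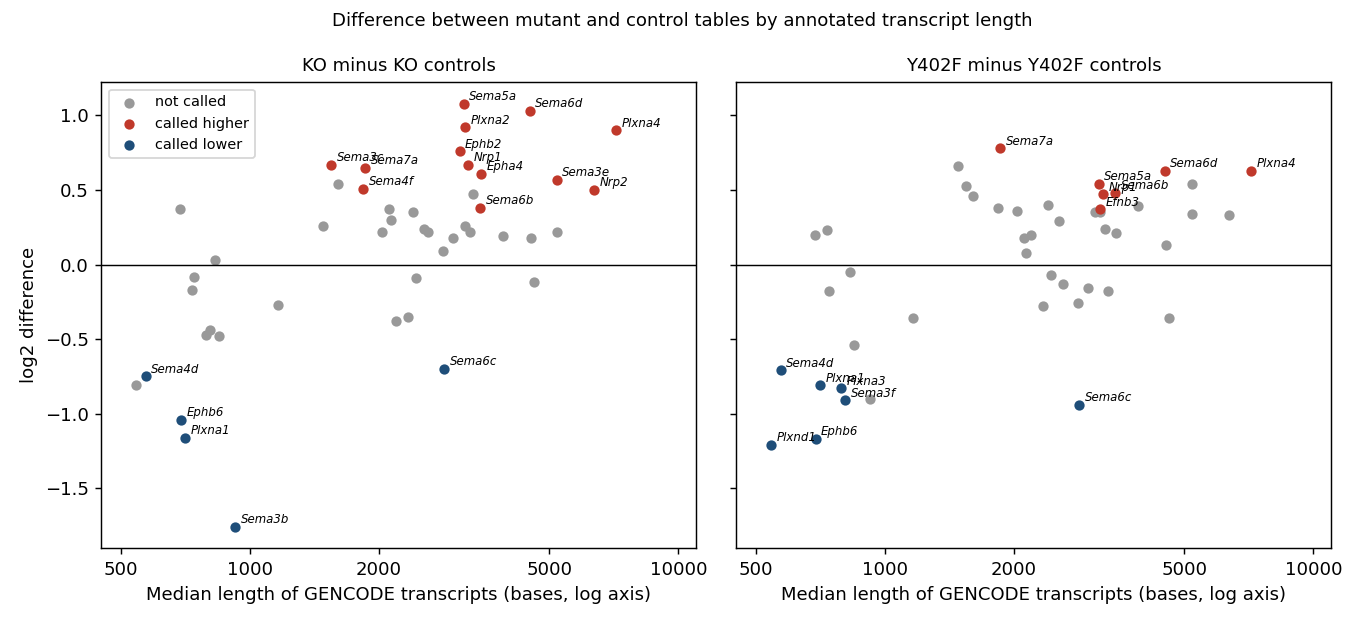
Log2 difference between mutant and control against the median length of a gene's GENCODE transcripts (bases, log axis) for the 47 tested guidance genes. Genes called higher (red) have a median length of 3229 bases and those called lower (blue) 706.5, with Sema6c the exception at 2843.

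The KO and Y402F tables are of one kind and carry expected counts, so these lines could be compared without a change of table. No guidance gene was called: 0 of 49 were called by edgeR's quasi-likelihood test, and 0 by DESeq2, where 0.00748% of 13376 genes (1 gene, Ptk2b) were called, and 2 had an unadjusted p under 0.05. Plxnd1 had the smallest p, with 279 and 270 expected counts in KO and 177 and 209 in Y402F. Its log2 difference was 0.52 (SE 0.17, edgeR adjusted p = 0.999). Sema4g came next, with 162 and 138 counts in KO and 100 and 123 in Y402F, a difference of 0.44 (SE 0.20, edgeR adjusted p = 0.999). Sema4b, with 65.4 and 86.2 against 91.7 and 106 counts, had a difference of -0.38 (SE 0.22). For these 3 genes the libraries of the groups did not overlap, which was so for 11 of the 49 genes. The share was 25.6% over the 12977 genes tested by limma, a set filtered differently from the 13376 genes tested by edgeR. The differences ranged from -0.48 at Epha8, with 12 to 22 counts, to 0.62 at Sema3f, with 6 to 16 counts. For the 7 members with a mean of at least 30 the differences were -0.02 for Epha4 (2262 and 2424 counts in KO, 2627 and 2149 in Y402F), -0.14 for Efna3, -0.04 for Efnb3, -0.09 for Plxna1, 0.04 for Sema7a, -0.02 for Epha7 and 0.03 for Sema6b. Plxna4 and Sema5a, at lower levels, had -0.15 and -0.19. Standard errors ran from 0.14 to 0.57 with a median of 0.18. With 2 libraries a group and adjustment over 13376 genes, differences well above 1 standard error could be missed. That of Plxnd1, 0.52 with an SE of 0.17, was not called.

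Between the controls, which are wild type in both lines and also share a kind of table, 2 of 47 guidance genes were called and both were lower in the KO controls, where 8.06% of all genes were called in either direction and 3.19% lower. They were Sema5a, at 7.50 and 7.43 against 13.2 and 12.5 in Y402F controls, a difference of -0.71 (SE 0.15, limma adjusted p = 0.0306), and Plxna2, at 7.27 and 7.66 against 11.6 and 11.7, a difference of -0.58 (SE 0.14, limma adjusted p = 0.0469). Both calls were lost when any 1 of the 4 control libraries was left out. Sema6a, the ligand of Plxna2 and Plxna4, measured 3.81 and 3.52 against 6.46 and 5.60, a difference of -0.59 that was not called (limma adjusted p = 0.0642). Here too the groups did not overlap, which held for 26 of 47 genes and for 59.0% of all genes. Altogether 11 of the 47 had an unadjusted p under 0.05, and the median difference was -0.07, against -0.02 for all genes. Summed FPKM was 1566000 and 1539000 in KO controls and 994400 and 1023000 in Y402F controls, so the tables differ within this kind too. Across the 47 genes Spearman's rho between median GENCODE transcript length and the difference was -0.29, and over 12423 protein-coding genes it was -0.24. Sema5a and Plxna2 had median lengths of 3158 and 3180 bases. The part of length in their values was not tested.

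Markers of other cells differed between the same controls, in both directions. The 6 dentate granule cell markers, all above 0 in every library, summed to 66.9 and 68.2 in KO controls and 94.3 and 94.3 in Y402F controls, and 3 of 6 were called lower in KO controls. The 6 neocortex markers, also all above 0, summed to 50.7 and 54.6 against 76.1 and 80.9, and 2 of 6 were called lower. Of the 8 choroid plexus markers 6 were tested and 4 were called lower, with the sums given above. In the dentate and neocortex lists 1 and 2 markers had positive differences. Called higher in KO controls were 4 of 5 blood, 3 of 8 microglia, 2 of 8 oligodendrocyte and 2 of 6 astrocyte markers. The same held for 1 of 5 oligodendrocyte precursor markers, while 1 hippocampal neuron marker was called higher and 1 lower. Of all genes 4.87% were called higher and 3.19% lower. The part of these cells in the values of Sema5a and Plxna2 was not tested. With a term for sex, which the mutant libraries alone can estimate, Sema5a stayed called at -0.83 (limma adjusted p = 0.0489) and Plxna2 was at -0.71 and not called (limma adjusted p = 0.0619). The X-linked members were not called, with differences of 0.08 for Efnb1, -0.38 for Plxna3 and 0.34 for Plxnb3.

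**Figure D4:**
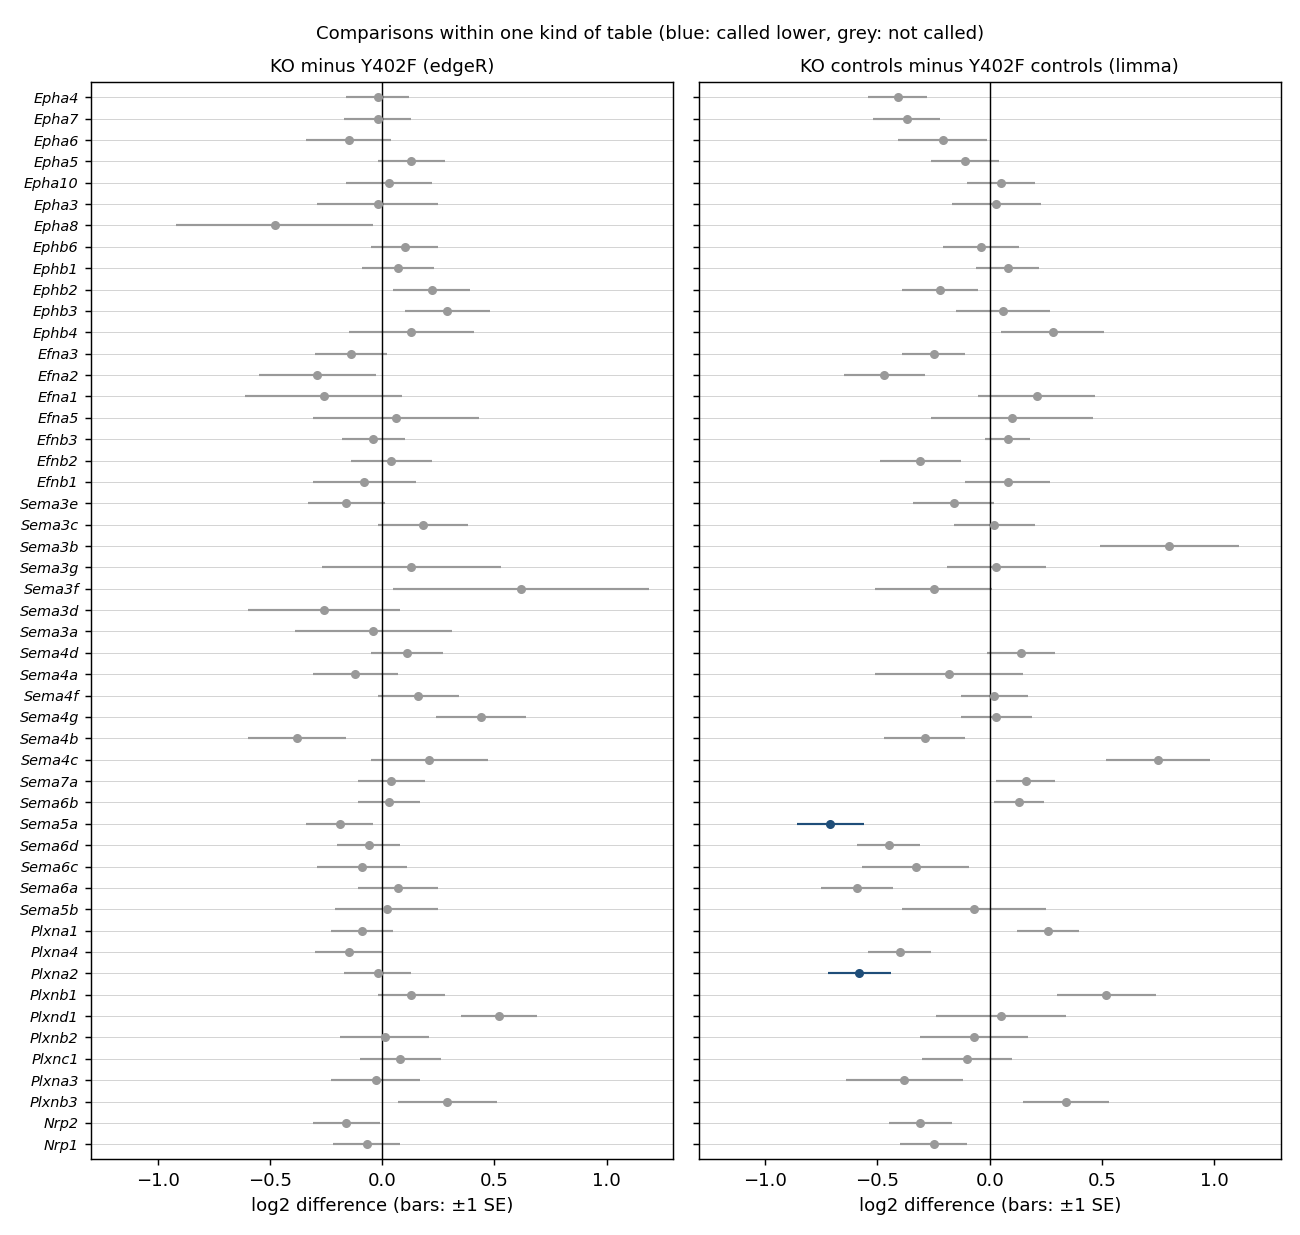
Log2 difference of the guidance genes in the comparisons that stay within 1 kind of table: KO minus Y402F for 49 genes (edgeR) and KO controls minus Y402F controls for 47 genes (limma), with bars of 1 standard error. The left panel holds 0 called genes and the right panel 2, Sema5a and Plxna2, both lower in KO controls.

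Whether the lines differ in their distance from control was tested directly as the KO difference minus the Y402F difference. Of the 47 guidance genes, 0 were called by limma, where 0.0308% of all genes were, and 3 had an unadjusted p under 0.05. These were Plxna2, with 0.58 (SE 0.20, limma adjusted p = 0.302), Sema6a, with 0.65 (SE 0.23, limma adjusted p = 0.309), and Sema5a, with 0.54 (SE 0.21, limma adjusted p = 0.331). They are the same 3 genes that had the smallest p between the controls, whose values enter both tests. The mutant values of Sema6a were 5.93 and 5.01 in KO and 5.33 and 5.06 in Y402F. So a gene called in one line only, such as Plxna2 or Epha4, was not shown to differ between the lines.

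Genes that act downstream of the receptors were examined as lists. Of 25 tested Eph and ephrin effectors, 4 were called higher and 8 lower in the KO line (48.0% in all) and 2 higher and 8 lower in the Y402F line (40.0%), beside 37.6% and 32.3% of all genes. Anks1b, an adaptor of the postsynaptic density, had differences of -1.82 and -1.57. Chn1, the alpha-chimaerin Rac regulator downstream of Epha4, had -0.89 and -0.93, and the phosphatase Synj1 had -1.07 and -1.29. Fyn, a Src family kinase, had -1.06 and -0.68, and Itsn1, an exchange factor for Cdc42, had -1.33 and -1.20. Rasa1, a Ras GTPase-activating protein, had -0.99 and -0.91, and Sipa1l1, a spine Rap regulator, had 0.58 and 0.44. All 7 were called in both lines. Called in the KO line alone were Arhgap39 (0.65), Kalrn (0.38) and Adam10 (0.63) higher and Nck1 (-0.65) and Anks1 (-0.79) lower. In the Y402F line alone Ngef (0.48) was called higher and Chn2 (-0.66) and Tiam1 (-0.85) lower. Tiam1, a Rac exchange factor, was also the 1 effector of these 25 called between the controls, with -1.37 (limma adjusted p = 0.0114). Of all genes 8.06% were called between the controls in either direction and 3.19% lower.

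Of 31 tested semaphorin and plexin effectors, 7 were called higher and 6 lower in the KO line (41.9%) and 4 and 8 in the Y402F line (38.7%). Of all genes 37.6% and 32.3% were called. Mical2, an actin-oxidising enzyme, had differences of -1.08 and -0.96, and the kinase Cdk5 had -0.84 and -0.64. Crmp1, one of the collapsin response mediators, had 0.52 and 0.39, and its relative Dpysl2 had 0.48 and 0.56. The adaptor Gipc1, which binds Nrp1, had -0.89 and -0.69, and the adhesion molecule Nrcam had -0.54 and -0.91. Cfl1, the actin-severing protein cofilin, had 0.31 and 0.50. These 7 were called in both lines. In the KO line alone Arhgef12 (0.75), Gsk3b (0.59), Arhgef11 (0.49) and Rras2 (0.45) were called higher and Fes (-1.02) and Rnd2 (-0.58) lower. In the Y402F line alone Rnd1 (0.68) was called higher and Dpysl3 (-0.96), Mical1 (-1.04), Sh3bp1 (-1.01) and Met (-0.97) lower. Between the controls 2 of 31 were called, Dpysl3 (-0.64) and Gsk3b (-0.51), both lower in KO controls. Of all genes 8.06% were called there in either direction and 3.19% lower.

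Of 22 tested genes of the netrin, Slit, Robo, Unc5, RGM and related guidance families, 7 were called higher and 3 lower in the KO line (45.5%) and 3 and 2 in the Y402F line (22.7%). The shares of all genes were 37.6% and 32.3%. Slit2, a secreted repellent, had differences of -1.13 and -1.42, while its relatives Slit3 (0.81 and 0.50) and Slit1 (0.74 and 0.53) were higher in both lines. Rgmb (0.64 and 0.44) was also higher in both and the netrin receptor Unc5a (-0.64 and -0.99) lower. Called in the KO line alone were Dcc (0.74), Robo1 (0.49), Unc5b (0.49) and Flrt2 (0.58) higher and Robo3 (-0.79) lower. Between the controls 2 of 22 were called, Robo2 (-0.66) and Ntng1 (-0.72), both lower in KO controls than in Y402F controls. The shares of all genes were 8.06% in either direction and 3.19% lower. In the KO and Y402F tables compared directly, 0 genes of these 3 lists were called by edgeR, and 0 were called by limma for the difference between the lines.

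The antisense RNAs at Plxna4 were at or near 0. Plxna4os1 measured 0.189, 0.0955, 0.476 and 0.179 in the mutant libraries and 0.599, 0.449, 0.0746 and 0 in the controls. Plxna4os2 was listed at 0 in all 4 control libraries, and Plxna4os3, whose exons overlap Plxna4, was at most 1.52e-05 there. None of the 3 reached the level needed for a test.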

How the data were processed

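Hippocampal RNA was sequenced in 8 libraries. The submitters' processing notes name Bowtie 1, HISAT and, for controls, Cufflinks, with build mm9; no step or order is given. Gene positions in the control tables match GENCODE M21 (GRCm38) at start or end for 99.8% of 17676 genes. The deposited mutant files hold expected counts (estimated counts per gene) and FPKM. The control files hold the authors' FPKM with confidence bounds. Strandedness and read filters are not given in the sources used here.

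Tables were joined by symbol (17629 genes) or Entrez identifier (89). The 41 control identifiers with 2 rows, Epha5 among them, were summed. FPKM was divided by median-of-ratios factors, which were 0.942 to 1.05. Log2(scaled FPKM + 1) of 12977 genes with a mean of at least 1 was fitted with limma 3.58.1 (R 4.3.3), with trend, over all 8 libraries in 4 groups. A fold on this scale understates the change of low genes. Expected counts were rounded and tested with edgeR 4.0.16 (TMM, quasi-likelihood, at least 10 counts in 2 libraries). DESeq2 1.42.0 was an alternative. The p-values were adjusted by Benjamini-Hochberg over all genes tested and called under 0.05. Both fits were tested on simulated data. The members and lists were chosen with earlier results of these data known. Library values are printed for members that were called, had the highest mean of their class, or were among the 3 smallest p of a comparison, with others named as examples after their values were seen.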

Additional observations from a re-analysis of the deposited data

Results flagged for a closer look

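For Sema6a, the KO libraries were above and the Y402F libraries below their own controls, with log2 differences of 0.47 and -0.18 and a gap of 0.65 between the lines. The gap itself was tested and not called (limma adjusted p = 0.309). Sema4g showed the same opposite movement, with 0.18 and -0.16 and a gap of 0.34 (limma adjusted p = 0.565). It measured 6.80 and 5.66 in KO, 5.30 and 5.40 in KO controls, 4.19 and 4.97 in Y402F and 5.16 and 5.30 in Y402F controls.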

How the results depend on the processing

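Counted over single genes and alternatives, 436 values kept direction and side of the threshold, 90 kept direction but were no longer called, and 0 reversed. In every alternative that tested them, 10 of the 18 KO calls (Epha4, Ephb6, Plxna1, Plxna2, Plxna4, Sema3b, Sema4d, Sema5a, Sema6d and Sema7a) and 3 of the 14 Y402F calls (Ephb6, Plxna1 and Sema7a) were kept. Sema3b reached the level for a test only through the controls, so that its being kept adds no support for its difference. With 1 library left out, the number of guidance genes called was 11 to 13 in the KO line, 7 to 12 in the Y402F line and 0 each time between the controls, where 1 group then has a lone sample assumed to vary like the others. Between the controls the count of 2 became 0 with no filter, 0 with no trend, 0 with only the 4 libraries compared, 1 with quantile normalization and 1 with a term for sex; the cause was not tested. Same-numbered replicates are tied by no label; their deviations correlated at 0.049 in the KO line, -0.031 in the Y402F line, 0.032 between the controls and 0.204 between KO and Y402F, where they also share the presence of Y-linked transcripts. With the replicate block the counts were 18 in the KO line, 14 in the Y402F line, 1 between the controls, and 0 for both remaining comparisons.

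Over all genes, the KO count of 4880 was 3097 without KO replicate 1. The control count of 1046 was 514 with no filter, 165 with no trend, 325 with only the 4 libraries and 170 to 274 with 1 library left out. The count of 4 for the difference between the lines was 7 with no filter, 2 at a mean of at least 5, 138 with a term for sex and 7 to 15 with 1 library left out. The KO against Y402F count of 1 was 2 with RLE factors, 2 with DESeq2, 4 with the replicate block, 5 with limma and 14 to 35 with 1 library left out. With 2 libraries a group and no counts for controls, small differences and genes under 1 scaled FPKM could not be resolved.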
